A study of Homo sapiens with 3 samples.

Results

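Collagen chain genes were examined in PANC-1, a long-established line of human pancreatic cancer cells with epithelial origin. The members were all genes whose symbol is COL, a number, A and a number, with no suffix, found by matching the transcript accessions of the array probes to gene symbols. The rule uses no measured value, but it was set with earlier results of these data known. There were 44 such genes among the 19699 genes matched on the array, covered by 56 probes. The study asked what inhibition of protein phosphatase 2A (PP2A) does to these cells. It compared 1 array of control cells with 1 array of cells given 20 µM cantharidin and 1 array of cells given okadaic acid, for which the sample label also reads 20 µM. Both agents inhibit PP2A and both were applied for 24 h. With 1 array a group no difference has a replicate check, no test across arrays was possible, and spread between cultures was not measured. In RNA from a whole culture, a change in the mix of cells and a change within each cell cannot be told apart.

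Collagens are secreted or membrane-bound proteins whose chains, each with long repeats that begin with glycine, wind around each other into a rope-like helix. Fibrillar collagens build the banded fibres of connective tissue, network collagens build basement membranes and other sheets, beaded filaments and anchoring fibrils link these structures, and fibril-associated collagens coat the fibres. Multiplexins sit in basement membranes and transmembrane collagens sit on the cell surface. Pancreatic tumours are known for dense collagen, most of it made by stromal fibroblasts, while epithelial cancer cells typically make basement membrane chains.

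The promoters of the members that the results below turn on are shown first, each from 250 bases before the start of transcription to 50 bases after it, taken from RefSeq (GRCh38.p14) and written 5′ to 3′ on the strand of the gene. Capitals mark matches, on either strand and with overlap allowed, to the GC box GGGCGG, the AP-1 site TGANTCA, the CCAAT box CCAAT or the TATA box TATAAA. COL4A1 (chr13:110307108-110307407, minus strand) and COL4A2 (chr13:110307034-110307333, plus strand) are shown because they are head to head and their windows share 226 bases. COL18A1, with starts in chr21:45404915-45405214 and chr21:45455272-45455571 on the plus strand, and COL13A1 (chr10:69801656-69801955, plus strand) are shown for their falls under both agents, and COL11A1 (chr1:103108473-103108772, minus strand) for its rise under cantharidin.
COL4A1: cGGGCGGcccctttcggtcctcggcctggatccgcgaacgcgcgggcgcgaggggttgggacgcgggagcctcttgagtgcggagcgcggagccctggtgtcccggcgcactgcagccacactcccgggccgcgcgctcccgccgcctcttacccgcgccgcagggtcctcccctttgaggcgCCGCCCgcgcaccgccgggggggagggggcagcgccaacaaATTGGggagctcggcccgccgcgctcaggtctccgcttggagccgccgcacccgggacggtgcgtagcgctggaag
COL4A2: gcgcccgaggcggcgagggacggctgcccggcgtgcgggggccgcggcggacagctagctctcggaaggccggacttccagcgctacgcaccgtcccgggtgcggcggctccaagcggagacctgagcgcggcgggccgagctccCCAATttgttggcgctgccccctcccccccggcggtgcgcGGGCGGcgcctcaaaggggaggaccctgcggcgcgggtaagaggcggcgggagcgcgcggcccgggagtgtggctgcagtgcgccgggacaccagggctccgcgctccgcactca
COL18A1 upstream start: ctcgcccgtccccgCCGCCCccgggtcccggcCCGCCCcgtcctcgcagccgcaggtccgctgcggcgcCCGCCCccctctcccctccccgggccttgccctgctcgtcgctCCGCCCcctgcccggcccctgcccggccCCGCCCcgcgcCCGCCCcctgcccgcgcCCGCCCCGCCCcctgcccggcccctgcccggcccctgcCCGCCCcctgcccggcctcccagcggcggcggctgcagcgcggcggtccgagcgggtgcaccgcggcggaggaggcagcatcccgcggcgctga
COL18A1 downstream start: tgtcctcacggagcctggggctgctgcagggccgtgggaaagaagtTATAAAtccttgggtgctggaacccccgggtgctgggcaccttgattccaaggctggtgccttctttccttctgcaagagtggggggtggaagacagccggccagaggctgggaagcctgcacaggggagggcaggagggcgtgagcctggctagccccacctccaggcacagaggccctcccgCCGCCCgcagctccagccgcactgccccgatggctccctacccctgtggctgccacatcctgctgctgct
COL13A1: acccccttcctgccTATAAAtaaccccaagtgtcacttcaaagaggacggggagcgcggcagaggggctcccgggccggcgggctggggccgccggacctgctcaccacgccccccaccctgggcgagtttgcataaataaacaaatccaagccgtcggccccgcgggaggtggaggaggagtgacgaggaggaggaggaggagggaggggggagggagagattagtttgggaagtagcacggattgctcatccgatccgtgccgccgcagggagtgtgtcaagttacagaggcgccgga
COL11A1: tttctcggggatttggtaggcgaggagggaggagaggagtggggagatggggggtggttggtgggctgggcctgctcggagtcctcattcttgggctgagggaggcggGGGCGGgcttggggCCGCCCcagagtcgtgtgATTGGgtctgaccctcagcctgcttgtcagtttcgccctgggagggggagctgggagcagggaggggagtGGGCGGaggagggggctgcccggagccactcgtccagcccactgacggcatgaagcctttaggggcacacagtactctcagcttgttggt

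The GC box, the binding motif of Sp1-type factors, was found 9 times at the upstream COL18A1 start, 3 times at COL11A1, 2 times in the COL4A1 window, and once each in the COL4A2 window and at the downstream COL18A1 start. COL13A1 held no GC box and 1 TATA box in this window. Among 44 windows of 32 collagen genes, 54.5% held a GC box, 31.8% a CCAAT box, 18.2% a TATA box and 2.27% an AP-1 site. Among all 35116 windows of the same length the shares were 45.0%, 34.6%, 11.5% and 7.71%. These are matches of letters and not measured binding sites.

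Levels are given as processed intensity, the brightness of a probe after background subtraction, and differences as log2 values with the 75th percentile of every array set equal. Printed intensities are before that step, at which the 75th percentiles were 784 (control), 713 (cantharidin) and 936 (okadaic acid), so a fold differs somewhat from the ratio of printed intensities. A gene well above background is called measured below. Genes entered a comparison if measured on either array, and were called at 1.5-fold, the threshold that the study used. An error after ± is the spot noise, the SD expected of that difference from replicate spots of other probes of like brightness (of the probe's own number of spots), and covers no variation between cultures. The lowest intensity well above background, the floor of an array, was 35.0 on the array of control cells, 21.9 on that of cantharidin and 58.0 on that of okadaic acid. Where a signal was not well above background, the fold is given as a bound, computed from that signal or the floor, whichever is higher. Keratin genes KRT7, KRT8, KRT18 and KRT19 and the epithelial marker EPCAM were well above background on all 3 arrays, and CDH1 only in control cells. EPCAM had log2 differences of -1.77 under cantharidin and -1.14 under okadaic acid, KRT8 had -1.17 and -0.22, and KRT7 -0.56 and -0.74. KRT18 and KRT19 went the other way, with 0.99 and 1.20 for KRT18 and 0.44 and 1.37 for KRT19. Summed intensities of the 6 epithelial markers were 146484 in control cells, 164597 under cantharidin and 269074 under okadaic acid. Of 7 fibroblast or stellate cell markers, 3 were measured in control cells, 4 under cantharidin and 2 under okadaic acid, with summed intensities of 638, 574 and 1071, and LUM, FAP and PDGFRA were measured on none. These sums hold opposite changes, since PDGFRB read 17.5 in control cells, 375 under cantharidin and 36.8 under okadaic acid, measured under cantharidin only, while THY1 had log2 differences of -1.97 and 0.65. Of 4 endothelial markers, 3, 3 and 2 were measured, with sums of 2376, 1819.9 and 1627, and KDR read 115, 505 and 37.9, the last not well above background. All 4 leukocyte marker probes (PTPRC, CD14, CD3E and CD79A) were well above background on every array, with summed intensities of 7457, 5580.2 and 17341. CD14 alone was past 1.5-fold among these, with log2 differences of -0.33 and 1.87. The part of these markers in the values below was not tested.

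Of the 44 collagen genes, 33 were measured on 1 array or more and 24 on all 3. The 33 are 75% of the collagen genes, against 85.1% of all genes measured on 1 array or more. By array, 31 were measured in control cells, 31 after cantharidin and 25 after okadaic acid. Of all 34041 probes, 24768, 25103 and 23071 were well above background on these arrays, so the okadaic acid array had the fewest there too. The 11 genes measured on no array were COL1A2, COL2A1, COL5A3, COL24A1, COL4A3, COL4A6, COL8A1, COL6A3, COL6A6, COL15A1 and COL28A1. COL1A2, the partner of COL1A1 in the main fibre of connective tissue, had 10 spots, of which 4 in control cells, 3 after cantharidin and none after okadaic acid were well above background.

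**Figure D1:**
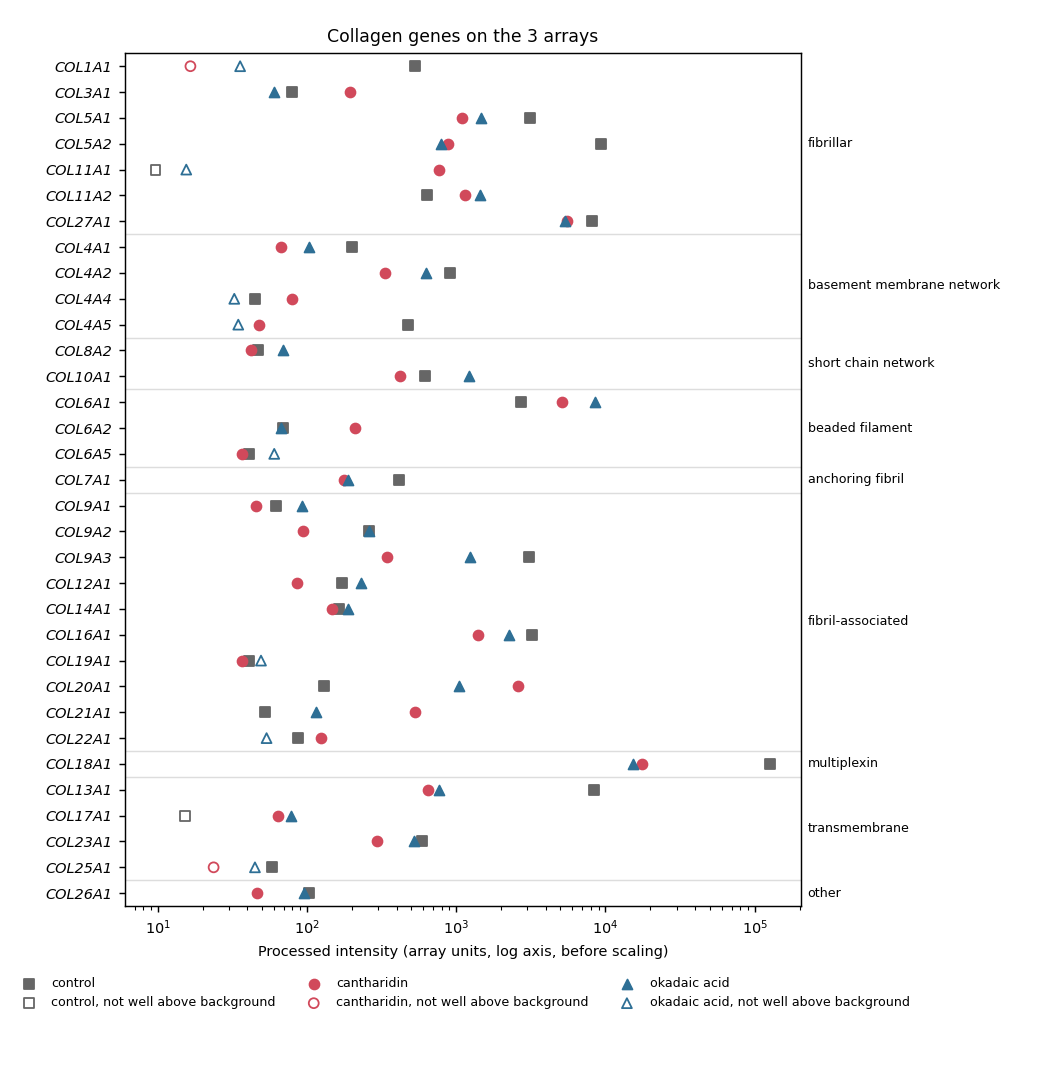
Processed intensity (log axis) of the 33 collagen genes measured on 1 array or more, by collagen class, with 1 point per array and open symbols where the signal was not well above background. Points should be compared along a row only, since each row is a different probe, and COL18A1 falls from 126818 to 17489 and 15188 while COL20A1 rises from 130.3 to 2612 and 1048.

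Cantharidin left 16 of the 33 collagen genes compared at least 1.5-fold lower, 10 higher by that margin and 7 within it. Together 26 of 33 were past 1.5-fold, against 61.6% of all genes. By direction this is 48.5% lower and 30.3% higher, against 34.1% lower and 27.5% higher among all 16644 genes compared. The share of higher genes was near that of all genes. The median log2 difference was -0.42 for the collagen genes and -0.16 for all genes. It was -0.86 over the 24 collagen genes measured on all 3 arrays, of which 6 were higher. Over all genes measured on all 3 arrays the median was -0.17, with 26.1% higher and 33.0% lower. The share of higher collagen genes was near that of all genes here too.

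Under okadaic acid, 16 of 32 collagen genes compared were lower, 6 were higher and 10 stayed within 1.5-fold. Among all 16166 genes compared, 28.8% were lower, 28.1% higher and 56.9% changed in either direction. The median log2 difference was -0.53 for the collagen genes and 0.01 for all genes. Without scaling, 11 collagen genes were lower and 7 higher, with medians of -0.28 for collagen and 0.26 for all genes. Of all genes, 22.4% were lower and 36.6% higher without scaling. With each dim signal raised to its array's floor 14 collagen genes were lower, since COL4A4 and COL25A1 then stayed within 1.5-fold. Of all genes, 27.0% were lower in that setting. Both comparisons used the same control array. There were 12 genes lower under both agents, and 5 higher under both, COL11A2, COL6A1, COL20A1, COL21A1 and COL17A1. The shares of all genes lower or higher under both agents are not given here. These counts therefore cannot be read as particular to collagen genes. The 12 lower genes include COL16A1, whose probes went opposite ways under cantharidin, and COL25A1. With normexp background correction COL17A1 and COL25A1 stayed within 1.5-fold under both agents and COL21A1 under okadaic acid.

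**Figure D2:**
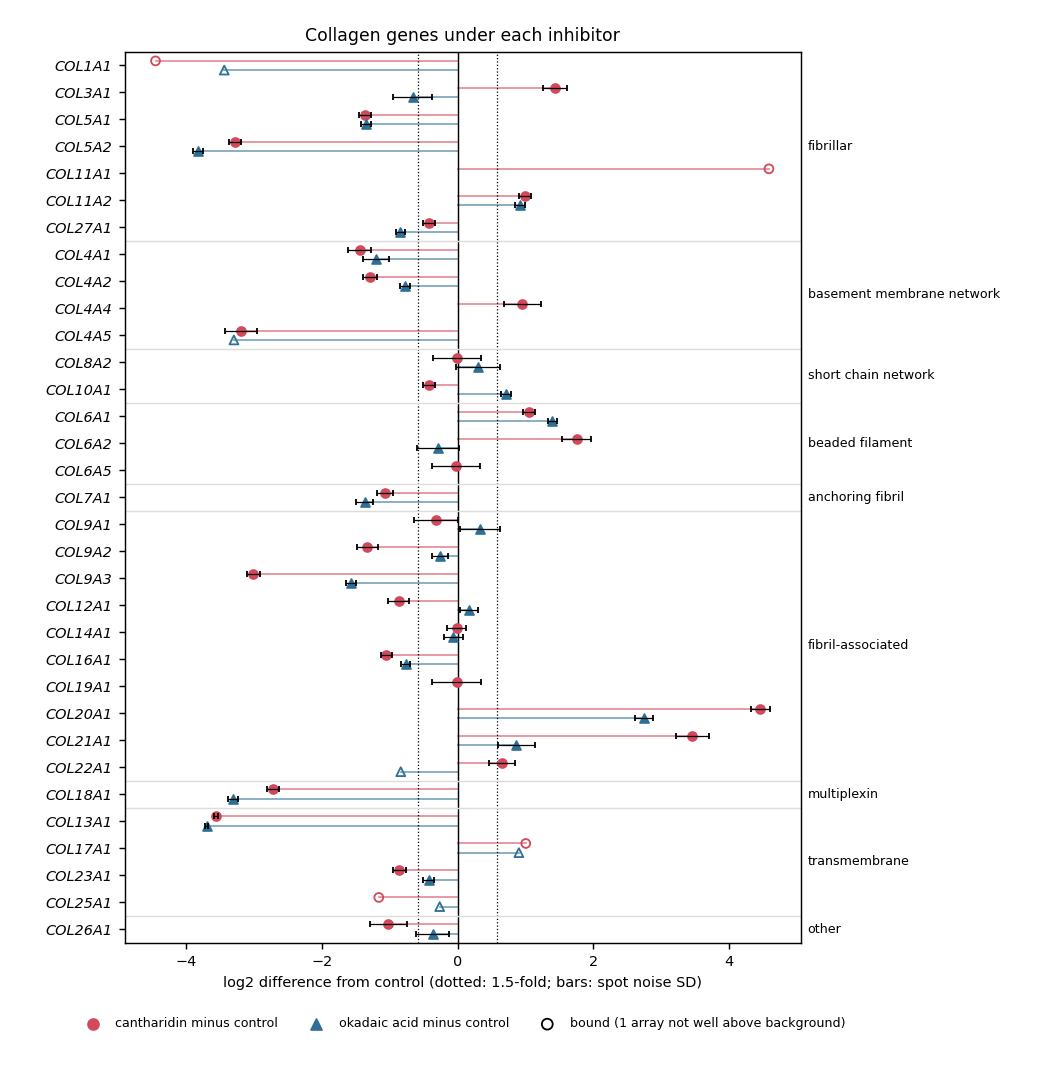
Log2 difference from control of each collagen gene compared, for cantharidin (circles) and okadaic acid (triangles), by collagen class, with the spot noise SD as bars and dotted lines at 1.5-fold. Open symbols are bounds where 1 of the arrays was not well above background, and a symbol is left out where no bound above 1-fold could be given. COL13A1, COL5A2 and COL18A1 lie far to the left for both agents, COL20A1 lies far to the right for both, and COL11A1 has a value under cantharidin only.

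Among the fibrillar chains, COL5A1 and COL5A2 of type V collagen, which starts the assembly of fibres, were lower under both agents, and the third type V chain, COL5A3, was not measured. COL5A2 had an intensity of 9412 in control cells, 878 under cantharidin and 789.7 under okadaic acid. It was 9.74-fold lower with cantharidin (-3.28 ± 0.0887 on the log2 scale) and 14.2-fold lower with okadaic acid (-3.83 ± 0.0766). Its partner chain COL5A1 was also lower on both treated arrays, with 3114 in control cells, 1094 under cantharidin and 1458 under okadaic acid, at 2.59-fold lower and 2.55-fold lower. A second, dimmer COL5A1 probe read 77.6 in control cells and was not well above background on either treated array.

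COL1A1, the major chain of type I fibres, was well above background in control cells only, with an intensity of 528 in control cells, 16.6 under cantharidin and 35.7 under okadaic acid. Cantharidin left it at least 21.9-fold lower and okadaic acid at least 10.9-fold lower. COL27A1, a fibrillar chain of cartilage, read 8107 in control cells, 5493 under cantharidin and 5383 under okadaic acid. It was 1.34-fold lower under cantharidin, within the threshold, and 1.80-fold lower under okadaic acid.

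The chains of type XI collagen, a minor partner in cartilage fibres, were higher under cantharidin. COL11A1 was measured under cantharidin only, and its intensities were 9.68 in control cells, 764 under cantharidin and 15.6 under okadaic acid. It was therefore at least 24.0-fold higher under cantharidin than in control cells. COL11A2 read 638 in control cells, 1151 under cantharidin and 1439 under okadaic acid and was 1.99-fold and 1.89-fold higher. All 3 COL11A2 probes rose under both agents, and the other probes gave log2 differences of 2.00 and 2.27 under cantharidin and of 1.07 and 1.35 under okadaic acid.

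COL3A1, the type III chain of elastic tissues, moved in opposite directions. Its intensity was 79.8 in control cells, 195 under cantharidin and 60.2 under okadaic acid. It was 2.69-fold higher with cantharidin (1.43 ± 0.179) and 1.58-fold lower with okadaic acid (-0.66 ± 0.288), where the signal lay just above the lowest measured on that array. Across 11 alternative ways to process the arrays, it was past 1.5-fold in all 11 for cantharidin and in 8 for okadaic acid.

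In the basement membrane network, 3 of 4 chains compared, COL4A1, COL4A2 and COL4A5, were lower under both agents. Of all genes, 34.1% were lower under cantharidin and 28.8% under okadaic acid. The share lower under both is not given here, so this count of few genes has no direct reference. COL4A1 and COL4A2, the chains of the common basement membrane network, both fell. COL4A1 read 200.3 in control cells, 66.8 under cantharidin and 104 under okadaic acid, and was 2.73-fold lower and 2.31-fold lower. COL4A2 read 905 in control cells, 334 under cantharidin and 630.2 under okadaic acid, and was 2.46-fold lower and 1.71-fold lower. Control cells had the highest signal of the 3 for both genes, cantharidin the lowest.

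COL4A5, a chain of specialised basement membranes such as that of the kidney filter, also fell. Its intensity was 479 in control cells, 47.5 under cantharidin and 34.7 under okadaic acid. Cantharidin left it 9.16-fold lower and okadaic acid at least 9.84-fold lower, where it was not well above background. COL4A4, another chain of that kind, was 1.93-fold higher under cantharidin, with 45.1 in control cells, 79.2 under cantharidin and 32.6 under okadaic acid. Under okadaic acid it was not well above background, its log2 difference was -0.72, and no fold can be given, since its control signal was close to the floor, and with the dim signal at the floor the difference was 0.11. With normexp its difference under cantharidin was 0.24, within 1.5-fold.

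COL7A1, the only chain of the anchoring fibrils that fasten skin epithelium to its base, read 412 in control cells, 178 under cantharidin and 189.8 under okadaic acid. Both treated arrays were lower, by 2.10-fold and 2.59-fold. Of the 2 short chain network collagens compared, COL10A1 changed, under okadaic acid only. COL10A1, a marker of maturing cartilage, read 621 in control cells, 422 under cantharidin and 1213 under okadaic acid. It was 1.64-fold higher under okadaic acid and stayed within 1.5-fold under cantharidin. For COL8A2, a corneal chain, the result depended on the probe. The probe used stayed within 1.5-fold under both agents, while the other read 63.8 in control cells and 6.20, not well above background, under cantharidin, at least 2.65-fold lower.

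The beaded filament chain COL6A1 was higher under both agents. Its intensity was 2702 in control cells, 5106 under cantharidin and 8490.3 under okadaic acid, lowest in control cells. It was 2.08-fold higher with cantharidin (1.06 ± 0.0871) and 2.63-fold higher with okadaic acid (1.40 ± 0.0691). Its partner COL6A2 was 3.37-fold higher under cantharidin and differed by 1.22-fold under okadaic acid, with 68.8 in control cells, 211 under cantharidin and 67.1 under okadaic acid. A second COL6A2 probe, for another transcript of the gene, did not rise, with log2 differences of -0.40 and -0.59. COL6A3, needed with both of them for the complete filament, was not measured on any array, and COL6A5 stayed within 1.5-fold, with 41.1 in control cells, 36.8 under cantharidin and 60.4 under okadaic acid, the last not well above background.

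The fibril-associated collagens moved both ways, in shares near those of all genes. Under cantharidin, 4 of 10 were lower and 3 higher, against 34.1% and 27.5% of all genes. Under okadaic acid 3 were lower and 2 higher, against 28.8% and 28.1%. The type IX chains, which decorate cartilage fibres, were lower or stayed within the threshold. COL9A3 read 3079 in control cells, 346 under cantharidin and 1239.8 under okadaic acid, and was 8.07-fold lower and 2.96-fold lower. COL9A2 was 2.52-fold lower under cantharidin, from 261 to 94.3, and at 259.8 under okadaic acid. COL9A1 stayed within 1.5-fold under both agents, with 62.1 in control cells, 45.4 under cantharidin and 93.1 under okadaic acid. COL12A1, which coats type I fibres, was 1.83-fold lower under cantharidin only, with 171 in control cells, 85.3 under cantharidin and 229.5 under okadaic acid.

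COL20A1 and COL21A1, less studied chains of this class, were higher under both agents. COL20A1 had an intensity of 130.3 in control cells, 2612 under cantharidin and 1048 under okadaic acid. Cantharidin left it 22.1-fold higher (4.46 ± 0.141) and okadaic acid 6.73-fold higher (2.75 ± 0.134). A dimmer probe of COL20A1 was well above background under cantharidin only, at 142. COL21A1 read 52.8 in control cells, 527 under cantharidin and 115 under okadaic acid, with log2 differences of 3.46 ± 0.239 and 0.86 ± 0.273, the latter 0.25 with normexp.

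COL22A1, a collagen of tissue junctions, read 87.0 in control cells, 125 under cantharidin and 53.7 under okadaic acid, and was 1.58-fold higher after cantharidin and at least 1.79-fold lower after okadaic acid, not well above background there. With normexp its differences were 0.39 and -0.36, both within 1.5-fold. COL14A1, a coat protein of type I fibres, stayed within 1.5-fold under both agents, with 165 in control cells, 148 under cantharidin and 188 under okadaic acid. COL19A1 did too, with 40.8 in control cells, 36.6 under cantharidin and 49.3 under okadaic acid, the last not well above background. COL16A1 depended on the probe. The brighter probe read 3209 in control cells, 1408 under cantharidin and 2248 under okadaic acid and gave log2 differences of -1.05 and -0.77. The other probe read 324, 868 and 321 on the same arrays and gave 1.56 and -0.27, so the direction under cantharidin is not settled.

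**Figure D3:**
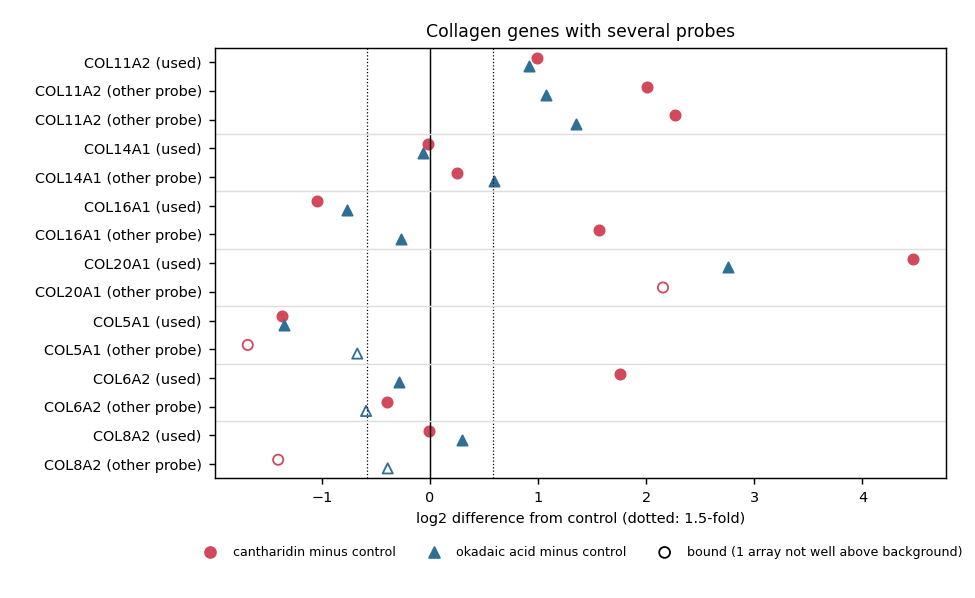
Log2 difference from control for each probe of the collagen genes with several probes above background, for cantharidin (circles) and okadaic acid (triangles), with open symbols for bounds and dotted lines at 1.5-fold. The probes of COL11A2 lie on the same side, while those of COL16A1 and COL6A2 lie on opposite sides under cantharidin.

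COL18A1, the basement membrane multiplexin whose end fragment is the angiogenesis inhibitor endostatin, was the collagen gene that the study singled out as lower on these same arrays, so its fall here is not independent evidence. The study also measured COL18A1 by real-time PCR in PANC-1 cells given cantharidin combined with kinase pathway inhibitors. Its summary of that PCR lists COL18A1 among genes whose rise under cantharidin was weakened by inhibitors of JNK, PKC and NF-κB. A rise is the opposite direction to the fall on the arrays. On the arrays COL18A1 read 126818 in control cells, 17489 under cantharidin and 15188 under okadaic acid. The log2 differences were -2.72 ± 0.0906 for cantharidin and -3.32 ± 0.0756 for okadaic acid, and across alternatives it stayed between -2.86 and -2.60 and between -3.44 and -3.06. The other multiplexin, COL15A1, was not measured on any array.

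The transmembrane collagen COL13A1, found at cell adhesions and the nerve-muscle junction, also fell under both agents. Its probe had 10 spots, which spanned intensities of 7936 to 8697 in control cells, 530 to 709.9 under cantharidin and 725 to 819 under okadaic acid, so the control spots did not overlap those of either agent. It was 11.8-fold lower with cantharidin (-3.57 ± 0.0296) and 13.0-fold lower with okadaic acid (-3.70 ± 0.0236). The 10 spots are repeats on 1 array per group, so their ranges cover no variation between cultures. The SD of log2 intensity over its own spots was 0.0371 in control cells, 0.135 under cantharidin and 0.0608 under okadaic acid, while the errors after ± come from other probes. COL17A1, a chain of the hemidesmosomes that hold epithelial cells to their base, was not measured in the control culture. It read 15.2 in control cells, 63.7 under cantharidin and 78.0 under okadaic acid, and was at least 2.00-fold higher with cantharidin and at least 1.87-fold higher with okadaic acid, but with normexp its log2 differences were 0.52 and 0.45, within 1.5-fold. COL23A1 was 1.82-fold lower under cantharidin only, with 593 in control cells, 297 under cantharidin and 526 under okadaic acid. COL25A1, known from brain amyloid plaques, was well above background in control cells only, at 58.5, and was at least 2.24-fold lower after cantharidin and at least 1.20-fold lower after okadaic acid. COL26A1 was 2.03-fold lower under cantharidin, from 103 to 46.1, and stayed within 1.5-fold under okadaic acid.

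There were 7 pairs of collagen genes that are next to each other on a chromosome, and 4 had both genes compared under both agents. Members of a pair did not always move together. On chromosome 13, COL4A1 and COL4A2 fell under both agents. On chromosome 2, COL5A2 showed log2 differences of -3.28 and -3.83 while its neighbour COL3A1 showed 1.43 and -0.66. On chromosome 21, COL6A1 showed 1.06 and 1.40 and COL6A2 1.75 and -0.29. COL19A1 and COL9A1, on chromosome 6, stayed within 1.5-fold.

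The agents were also set directly against each other, which does not use the control array. Of 31 collagen genes, 6 were higher and 9 lower after okadaic acid than after cantharidin by 1.5-fold or more, or 19.4% and 29.0%, against 29.5% and 22.3% of all 16200 genes compared and 51.8% in either direction. With dim signals at the floor 8 were lower, since COL4A5 then stayed within 1.5-fold, against 20.5% of all genes in that setting. The median with the main scaling was -0.05, and 0.13 over all genes. The balance depended on the scaling, and without scaling 13 collagen genes were higher and 7 lower, with a median of 0.35, while 47.1% of all genes were higher and 13.9% lower, with a median of 0.52. With scaling to the array median 4 were higher and 10 lower, against 24.2% and 27.2% of all genes.

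The 9 lower genes were COL11A1, COL21A1, COL3A1, COL6A2, COL20A1, COL22A1, COL4A4, COL4A5 and COL18A1. This comparison shares the cantharidin array with that of cantharidin against control. COL11A1 was at least 17.3-fold lower under okadaic acid than under cantharidin. COL21A1 was 6.05-fold lower (-2.60 ± 0.175), COL3A1 4.26-fold lower (-2.09 ± 0.261), COL6A2 4.12-fold lower (-2.04 ± 0.252, but -0.20 by its other probe) and COL20A1 3.28-fold lower (-1.71 ± 0.0970). COL22A1 and COL4A4 were at least 2.82-fold lower and at least 1.79-fold lower, both not well above background under okadaic acid. COL4A5, also not well above background there, was at least 1.07-fold lower. The higher group held all 3 type IX chains, with log2 differences of 0.64 ± 0.313 for COL9A1, 1.07 ± 0.169 for COL9A2 and 1.45 ± 0.102 for COL9A3, and COL10A1 at 1.13 ± 0.0930, COL12A1 at 1.03 ± 0.164 and COL26A1 at 0.65 ± 0.312. COL9A1 and COL26A1 passed 1.5-fold in 6 of 11 alternatives each. COL13A1 and COL5A2 stayed within 1.5-fold between the agents, at -0.13 and -0.55, and COL18A1 was at -0.60, past 1.5-fold in 8 of 11 alternatives.

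**Figure D4:**
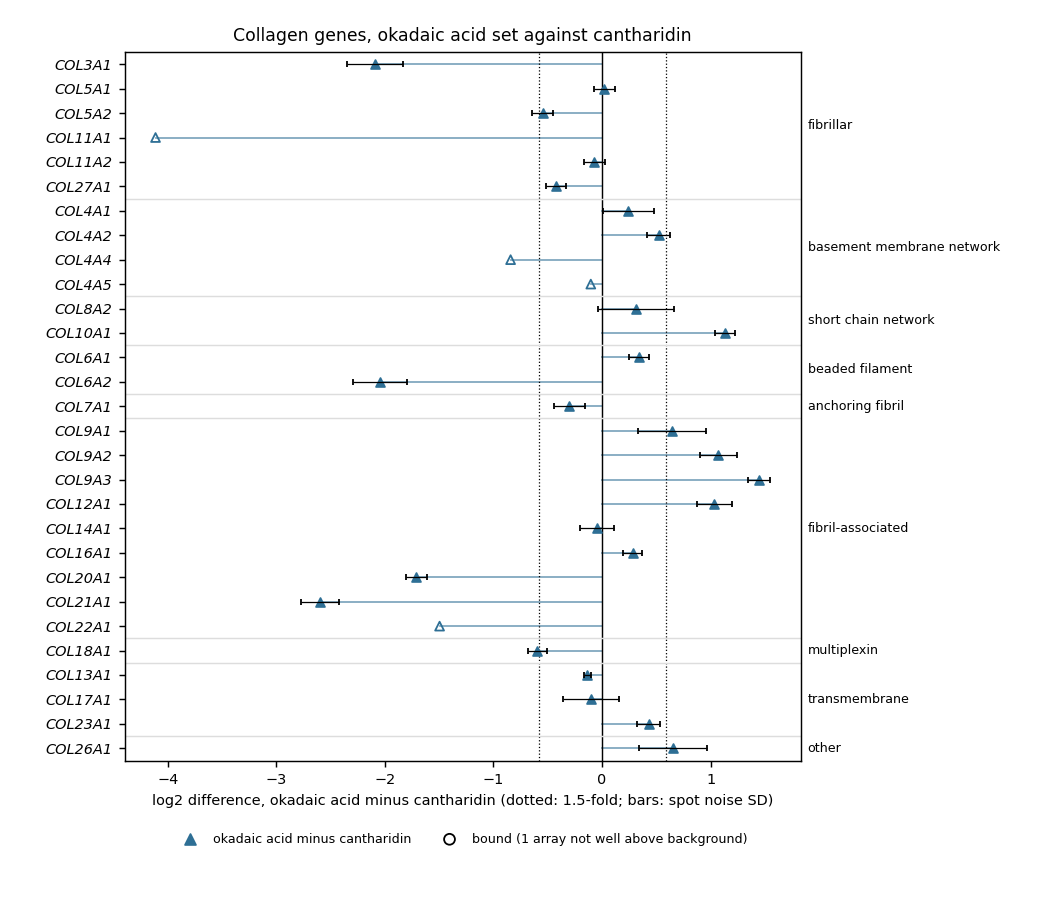
Log2 difference between okadaic acid and cantharidin for each collagen gene with a measured value or a bound, by collagen class, with the spot noise SD as bars, open symbols for bounds and dotted lines at 1.5-fold. COL11A1, COL21A1, COL3A1 and COL6A2 lie to the left (lower under okadaic acid), and the COL9 chains, COL10A1 and COL12A1 to the right.

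Collagen chains need a set of enzymes and carriers, and 45 such genes were listed with 6 roles. Under cantharidin, 20 of 40 compared were lower and 7 higher (median -0.64), and under okadaic acid 20 of 41 were lower and 7 higher (median -0.50), against the shares of all genes given above. With dim signals at the floor 18 were lower under okadaic acid. Directly compared, 19 of 40 were higher and 7 lower (6 with dim signals at the floor) under okadaic acid, with a median of 0.46. The counts by role below are to be read against the same shares of all genes.

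Of 15 genes for hydroxylation and glycosylation, 8 were lower and 2 higher under cantharidin, and 9 lower (8 with dim signals at the floor) and 1 higher under okadaic acid. PLOD1, a lysyl hydroxylase, read 9443 in control cells, 823 under cantharidin and 1692 under okadaic acid, and was 10.4-fold lower and 6.66-fold lower. PLOD2, another lysyl hydroxylase, read 5099.7 in control cells, 578 under cantharidin and 1827 under okadaic acid, and was 8.02-fold lower and 3.33-fold lower. P3H4, a partner of lysyl hydroxylation, fell under cantharidin only. It read 20268 in control cells, 2087 under cantharidin and 22566 under okadaic acid, and was 8.83-fold lower under cantharidin and within 1.5-fold under okadaic acid.

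Of 6 genes for folding and export, 3 were higher and 1 lower under cantharidin, and 2 each way under okadaic acid. SERPINH1, the collagen chaperone of the endoplasmic reticulum, read 21236 in control cells, 4605 under cantharidin and 12830.1 under okadaic acid, and was 4.19-fold lower and 1.98-fold lower. The brightest probes of MIA3 and MIA2, which help large collagens leave the endoplasmic reticulum, were higher, with log2 differences of 1.26 and 2.59 for MIA3 and of 1.57 and 1.82 for MIA2. Their probes differed, and the median over the probes of MIA3 was -0.85 with cantharidin and 0.31 with okadaic acid, and that of MIA2 0.65 and 0.09. Of 7 propeptide removal genes compared, 3 were lower and 1 higher under cantharidin, and 2 lower (1 with dim signals at the floor) under okadaic acid. PCOLCE2, an enhancer of propeptide removal, was 8.43-fold lower and 5.50-fold lower, with 5749 in control cells, 619 under cantharidin and 1247 under okadaic acid. In the same group, ADAMTS14 was 2.30-fold higher under cantharidin, and PCOLCE stayed within 1.5-fold under both agents.

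The crosslinking enzymes of the lysyl oxidase family differed between the agents. LOX read 87.9 in control cells, 94.9 under cantharidin and 1188 under okadaic acid. It was 11.3-fold higher under okadaic acid (3.50 ± 0.0490) and had a log2 difference of 0.25 under cantharidin. LOXL4 read 100.0 in control cells, 685 under cantharidin and 15.7 under okadaic acid. It was 7.55-fold higher after cantharidin (2.92 ± 0.161) and at least 2.06-fold lower after okadaic acid, not well above background there. LOXL1 was 5.43-fold lower and 2.12-fold lower, and LOXL2 and the brighter probe of LOXL3 were also lower under both agents. A dimmer LOXL3 probe read 56.1 in control cells, 25.9 (not well above background) under cantharidin and 73.6 under okadaic acid. It was at least 1.97-fold lower under cantharidin but had a log2 difference of 0.14 under okadaic acid, against -0.93 for the brighter probe. Directly compared, LOXL4 was lower and the other 4 were higher under okadaic acid than under cantharidin.

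Of the collagen receptors, 4 of 6 compared were lower under cantharidin and none higher, and under okadaic acid 3 of 7 were lower and 3 higher. DDR1, a receptor kinase that binds collagen, read 4739 in control cells, 465 under cantharidin and 1760.1 under okadaic acid, and was 9.26-fold lower and 3.21-fold lower. The integrin chain ITGB1 was 2.49-fold lower with cantharidin and 5.76-fold lower with okadaic acid. Its collagen-binding partner ITGA10 was 4.22-fold lower and 1.86-fold lower. ITGA2, another such partner, which stayed within 1.5-fold under cantharidin with normexp (-0.30), was 1.66-fold lower with cantharidin and 2.42-fold higher with okadaic acid, with 98.2 in control cells, 53.8 under cantharidin and 284 under okadaic acid. Of the 4 fibril-binding proteoglycans, DCN alone was measured, close to the floor at 73.1, 37.7 and 76.2 in control, cantharidin-treated and okadaic acid-treated cells.

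**Figure D5:**
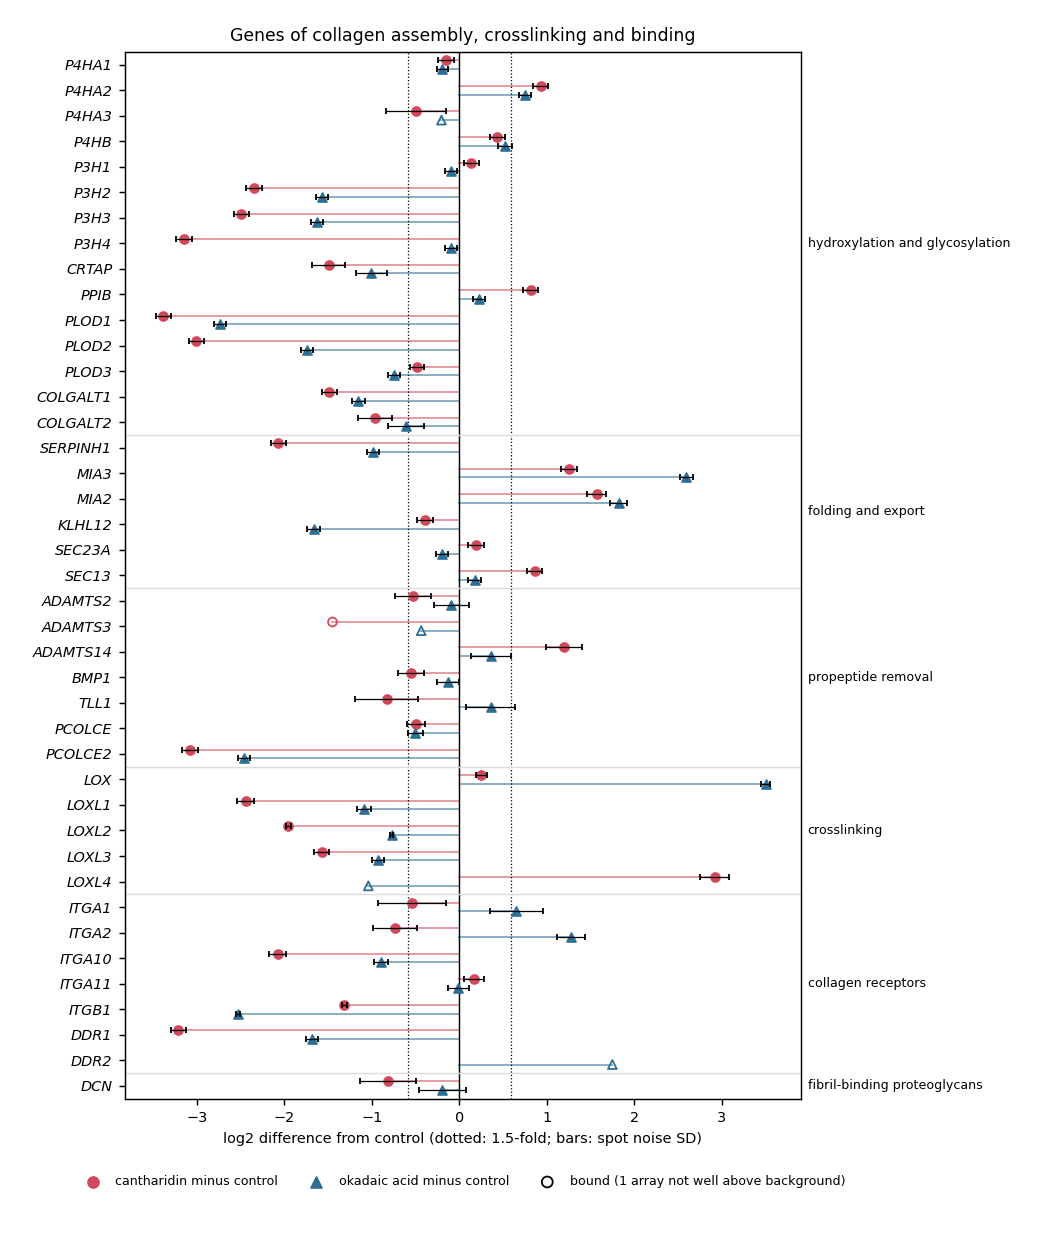
Log2 difference from control of the genes for collagen modification, export, processing, crosslinking and binding, for cantharidin (circles) and okadaic acid (triangles), with the spot noise SD as bars, open symbols for bounds and dotted lines at 1.5-fold. PLOD1, PLOD2, PCOLCE2 and DDR1 lie to the left for both agents, while LOX lies to the right under okadaic acid and LOXL4 on opposite sides.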

How the data were processed

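RNA of the 3 cultures was hybridised to Agilent 1-colour arrays. The authors deposited processed intensity per spot from Feature Extraction 11.0.1.1, background-subtracted and detrended within each array per the file headers, with hg19 annotation, and flags for outliers and signal well above background. They also deposited normalized log2 values, whose making is not given in the sources used here. The latter served as an alternative.

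The log2 intensity was averaged over unflagged spots (34041 probes), and its 75th percentile was set equal on every array. Accessions matched RefSeq transcripts of GRCh38.p14 for 25705 probes, used for names and promoters only. The probe with the highest mean log2 signal stood for a gene. No pseudocount was used and no test was run. The number of arrays limits the precision. The arrays came from 1 slide and 1 scan, with position and group confounded.

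Members and lists were chosen with earlier results of these data known. Named pathway genes are the 2 per list and agent with the largest change measured on both arrays, and LOXL2, LOXL3, ITGA2 and P4HA3 were added after their values were seen. For spot noise, the 51 10-spot probes closest in brightness were used. The counting was tested on simulated data. Alternatives were normexp background correction (offset 50, on the median spot intensity), other scalings and quantile normalization, no scaling, other filters, the deposited table, dim signals at the array floor, the median over probes, centring within 16 blocks and a 2-fold threshold. R 4.3.3, limma 3.58.1, Python 3.11.15, numpy 2.4.6, pandas 2.3.3 and matplotlib 3.10.9 were used.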

Additional observations from a re-analysis of the deposited data

Results flagged for a closer look

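For 5 genes the log2 differences from control had opposite signs under the agents, each beyond 1.5-fold as computed from the signals. The share of all genes with such opposite differences is not given here, so this count cannot be read as particular to collagen or pathway genes. With 1 array each, the difference between the agents was not tested. The crosslinking enzyme LOXL4 had 2.92 under cantharidin and -2.93 under okadaic acid, the latter from a signal not well above background. It alone of the 5 stayed past 1.5-fold both ways with normexp and with dim signals at the floor. COL3A1 had 1.43 and -0.66, the latter -0.29 with normexp. The integrin chain ITGA2 had -0.73 and 1.28, measured on all 3 arrays, the former -0.30 with normexp. COL22A1 had 0.66 and -0.95, not well above background under okadaic acid, and 0.39 and -0.36 with normexp. COL4A4 had 0.95 and -0.72, but its signal under okadaic acid was not well above background and no fall can be stated there, since the difference was 0.11 at the floor. With normexp its differences were 0.24 and -0.34.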

How the results depend on the processing

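Spot noise and the number of arrays, not the depth of a library, limit these values. Of the collagen genes past 1.5-fold, 19 of 26 under cantharidin, 14 of 22 under okadaic acid and 9 of 15 between the agents stayed past it in the same direction in every alternative at the 1.5-fold threshold that gave a value. Across these, the median of all genes compared ranged from -0.30 to -0.09 under cantharidin, -0.11 to 0.26 under okadaic acid and -0.02 to 0.52 between the agents, and list medians are to be read against it. The direction turned for COL16A1 under cantharidin and MIA3 under cantharidin with the median over probes, at 0.26 and -0.85, and with dim signals at the floor for COL4A4 under okadaic acid, at 0.11, and P4HA3 between the agents, at 0.29. No paired analysis was possible because each group has 1 array.

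With normexp, the collagen median under okadaic acid was -0.33, 3 collagen genes were higher under okadaic acid than under cantharidin, and the pathway median was -0.37 under cantharidin and 0.21 between the agents. Of all genes, 19.5% were higher between the agents with normexp. Without scaling, the collagen medians were -0.28 under okadaic acid and 0.35 between the agents, with 13 collagen genes higher between them, the pathway medians were -0.25 and 0.86, and 4 pathway genes were lower between the agents. Of all genes, 47.1% were higher and 13.9% lower between the agents without scaling. Without a filter, the medians under okadaic acid were -0.33 for collagen and -0.20 for pathway genes, and 12 of 44 collagen genes were higher between the agents. Of all genes, 36.5% were higher between the agents without a filter. With genes measured on all 3 arrays, 6 collagen genes were higher under cantharidin (median -0.86), 5 were lower between the agents (median 0.13), and the pathway median under okadaic acid was -0.20. Of all genes so measured, 26.1% were higher under cantharidin and 20.0% lower between the agents. With dim signals at the floor, the medians under okadaic acid were -0.33 and -0.20, and centring within blocks gave -0.73 for the pathway. At 2-fold, 3 collagen genes were higher and 9 lower under okadaic acid, 4 pathway genes were higher under cantharidin and 4 lower between the agents. The shares of all genes at 2-fold are not given here, so these last counts have no reference. The causes of these shifts were not tested.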
